A study of Mus musculus with 18 samples.

Results

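The Hox genes of paralog groups 11 to 13 are the last genes of the mouse Hox clusters, and 9 of the 39 mouse Hox genes belong to them: Hoxa11, Hoxc11, Hoxd11, Hoxc12, Hoxd12, Hoxa13, Hoxb13, Hoxc13 and Hoxd13. They were chosen by name, and each was read at its RefSeq position as the gene span plus 1 kb at each end. The study profiled H3K27me3, histone H3 trimethylated at lysine 27, by CUT&Tag, in which an antibody directs a transposase to cut and tag DNA beside the mark. Each reaction held the headfold of 1 mouse embryo at embryonic day 8.5, and every embryo was Gulo-/-, which leaves mice unable to make their own vitamin C. Embryos came from the B6 background or from 129S6.B6-Gulo-/- mice (129 below), either with nothing added (AAmin, without vitamin C) or with drinking water that held 3.3 g/l of vitamin C (AAplus, with vitamin C). Peak lists of 12 of the 18 samples were used, 3 libraries in each of the 4 groups, with 2 female embryos and 1 male embryo in each group. B6 libraries keep the replicate numbers 1, 2 and 4. The 3 B6 embryos with vitamin C carry the same timed pregnancy code, so vitamin C and pregnancy cannot be fully told apart in B6. Not analysed here were the 4 IgG samples and another 2 H3K27me3 samples, both of B6.

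Hox genes encode homeodomain transcription factors that give body segments their identity, and they are switched on in the order in which they lie along the cluster. The posterior groups come last and act in the tail end of the trunk, the limbs and the urogenital and genital tissues, and before and outside those places Polycomb proteins hold them silent under H3K27me3. The headfold is the front end of the embryo, ahead of the tissue in which posterior Hox genes are normally activated. No RNA was measured in these samples, so the values below speak only of where peaks were called.

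All 9 posterior genes carried H3K27me3 peaks in at least 10 of the 12 libraries, against 5.93% of all 21887 protein-coding genes. All but Hoxc11 and Hoxc12, 7 genes, were marked in all 12 libraries, which 2.18% of protein-coding genes were. Hoxc11 and Hoxc12 missed a peak only in replicate 2 of the 129 embryos without vitamin C. Of the 108 combinations of gene and library, 106 had a peak, 90 had at least 50% of the extended gene covered and 63 had it covered in full. Full coverage in 6 or more libraries was seen for 7 of 9 genes, all but Hoxa13 and Hoxd11, and for 1.11% of protein-coding genes. Coverage of at least 50% in 10 or more libraries was seen for 6 of the 9 genes (Hoxa11, Hoxd11, Hoxd12, Hoxb13, Hoxc13 and Hoxd13) and for 1.15% of protein-coding genes. The heat map of coverage shows that the incomplete values lie mainly in a few libraries rather than in a few genes, with Hoxa13 as the gene most often incomplete. Fewer cells carrying the mark and less mark per cell cannot be told apart in such samples.

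**Figure D1:**
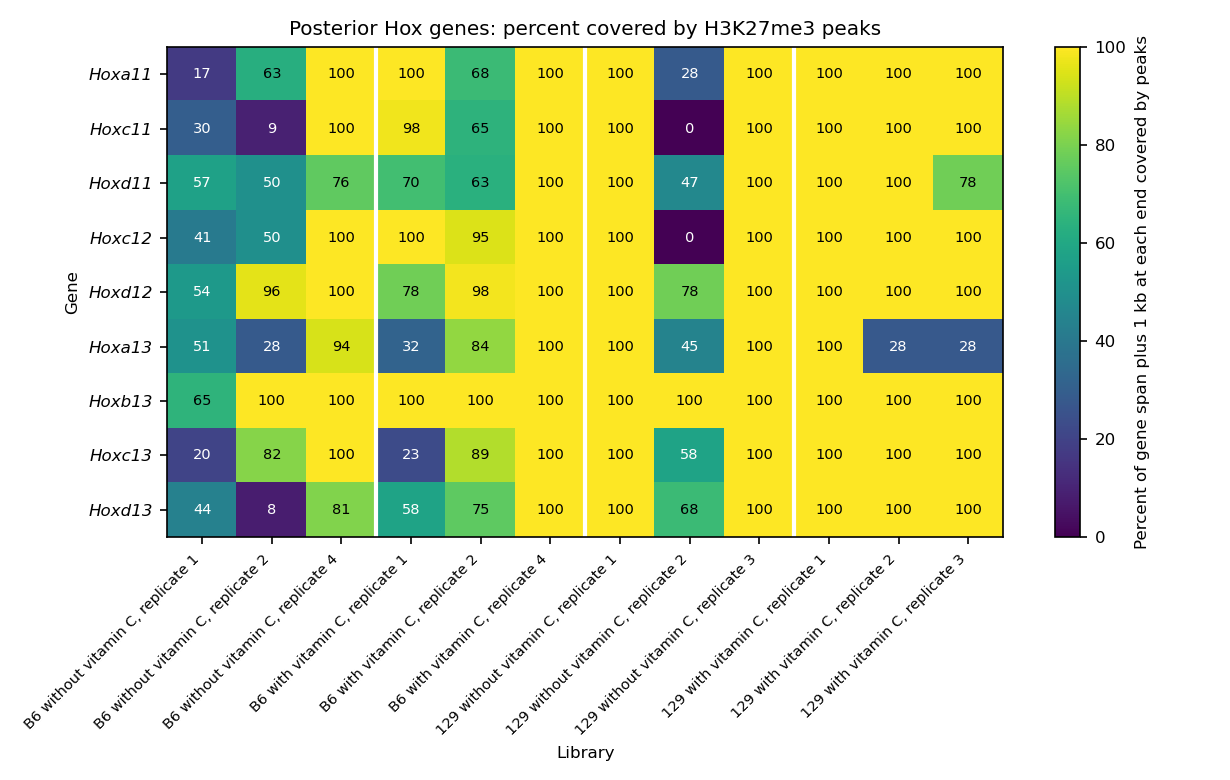
Percent of each posterior Hox gene, with 1 kb at each end, covered by H3K27me3 peaks (colour and printed value) in the 12 libraries (columns); white lines part the groups. Hoxb13 is covered in full in 11 libraries, and Hoxa13 in 4.

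Promoter sequence of 5 of the 9 genes was in the RefSeq table for GRCm38.p6, the assembly that mm10 stands for, with 6 promoters in all because Hoxd11 has 2 start sites there. The 250 bases before the start are printed for Hoxa13 and Hoxd13, whose start regions are the richest in CG, for Hoxd12, whose promoter lay within peaks in all 12 libraries, and for both start sites of Hoxd11, which differ in CG content and in how often they were covered. Each is written 5′ to 3′ on the gene's strand, with every CG dinucleotide in capitals. Hoxa13 lies on the minus strand (chr6:52260881-52261130), and the others lie on the plus strand (Hoxd13 chr2:74667975-74668224, Hoxd12 chr2:74674763-74675012, Hoxd11 first start chr2:74679308-74679557 and second start chr2:74682073-74682322).
Hoxa13: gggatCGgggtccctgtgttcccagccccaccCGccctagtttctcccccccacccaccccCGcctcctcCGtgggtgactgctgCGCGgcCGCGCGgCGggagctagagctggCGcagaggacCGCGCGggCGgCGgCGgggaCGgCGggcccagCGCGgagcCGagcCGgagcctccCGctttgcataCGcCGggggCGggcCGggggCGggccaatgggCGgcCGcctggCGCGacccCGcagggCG
Hoxd13: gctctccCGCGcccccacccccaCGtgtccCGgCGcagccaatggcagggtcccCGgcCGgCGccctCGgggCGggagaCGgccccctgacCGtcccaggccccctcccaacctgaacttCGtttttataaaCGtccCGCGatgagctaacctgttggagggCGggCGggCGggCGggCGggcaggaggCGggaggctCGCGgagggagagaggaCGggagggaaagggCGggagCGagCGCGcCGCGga
Hoxd12: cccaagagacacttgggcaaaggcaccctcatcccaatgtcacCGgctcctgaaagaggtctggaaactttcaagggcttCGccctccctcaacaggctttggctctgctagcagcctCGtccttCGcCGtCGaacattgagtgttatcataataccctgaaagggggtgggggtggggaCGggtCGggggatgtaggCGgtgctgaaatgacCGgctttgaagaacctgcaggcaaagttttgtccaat
Hoxd11 first start: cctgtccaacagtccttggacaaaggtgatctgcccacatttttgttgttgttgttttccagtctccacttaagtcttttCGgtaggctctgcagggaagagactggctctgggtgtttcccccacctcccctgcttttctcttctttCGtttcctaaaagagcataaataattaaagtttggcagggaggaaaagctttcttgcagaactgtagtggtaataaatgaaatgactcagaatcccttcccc
Hoxd11 second start: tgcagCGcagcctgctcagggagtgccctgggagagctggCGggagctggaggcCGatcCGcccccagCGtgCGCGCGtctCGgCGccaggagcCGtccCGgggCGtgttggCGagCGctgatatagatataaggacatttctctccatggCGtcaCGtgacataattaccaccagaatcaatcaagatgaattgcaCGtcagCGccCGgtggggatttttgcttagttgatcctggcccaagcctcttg

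The Hoxa13 promoter held 35 CG dinucleotides and 80% G or C, which placed it at the 97.0th percentile of CG count among 32851 RefSeq promoters of the same length, 92.1% of which held at least 1 CG (median 6, quartiles 2 and 16). It was covered in full in 11 libraries and left out in 1. The Hoxd13 promoter held 31 CG (94.8th percentile) and was covered in full in 10 libraries and left out in 2. The Hoxd12 promoter, with 10 CG (62.2nd percentile), and the second Hoxd11 promoter, with 20 CG (82.1st percentile), were covered in full in all 12. The first Hoxd11 promoter, with 2 CG (18.8th percentile), was covered in full in 9 libraries and left out in 3. The Hoxa11 promoter, with 13 CG (68.5th percentile), was covered in full in 10, in part in 1 and not at all in 1. The 6 promoters therefore ran from poor to rich in CG, and all of them lay within peaks in at least 9 libraries. The share of the 32851 promoters covered as often is not given, so this count is a description only.

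Group 13 genes stand at the very end of each cluster and act in the digits, the hindgut and the genital tubercle. Hoxb13, known for its role in the tail and the prostate, stands alone on chr11:96194316-96196610, with 74.7 kb between it and its nearest Hox neighbour, Hoxb9. It was the most evenly covered posterior gene. Coverage was 65.1, 100 and 100% in the B6 embryos without vitamin C and 100% in all 9 other libraries. Only replicate 1 of that B6 group was incomplete, and there 2 peaks lay on the gene. The peak on Hoxb13 ranked 14th to 473rd by total signal within the lists, and its widest peak ran from 2.58 to 49.9 kb with a median of 26.9 kb.

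Hoxa13, needed for digit and genital development, lies on chr6:52258853-52260880. Its coverage was 50.9, 28.2 and 93.8% in the B6 embryos without vitamin C and 31.8, 83.9 and 100% in the B6 embryos with vitamin C. In 129 it was 100, 44.6 and 100% without vitamin C and 100, 28.0 and 28.1% with vitamin C. High and low libraries stood in every group, so the groups overlapped throughout. Hoxa13 had the lowest mean coverage of the 9 genes, 65.8% ± 32.9 (SD, n = 12), while it was marked in all 12 libraries.

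Hoxc13, which acts in hair and nails as well as in the tail, lies on chr15:102921131-102928814. Coverage was 20.4, 82.0 and 100% in the B6 embryos without vitamin C and 23.0, 88.5 and 100% in the B6 embryos with it. In 129 it was 100, 57.9 and 100% without vitamin C and 100% in all 3 libraries with vitamin C. The lowest values, near 20%, stood in replicate 1 of both B6 groups. In the list of replicate 1 of the B6 embryos with vitamin C, the Hoxc13 peak ranked 2355th of 2397 by total signal, while in replicate 3 of the 129 embryos with vitamin C the peak that holds Hoxc13 ranked 1st.

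Hoxd13, a digit gene whose mutations fuse fingers and toes, lies on chr2:74668225-74671603. Coverage was 44.0, 8.16 and 81.1% in the B6 embryos without vitamin C and 57.9, 75 and 100% in the B6 embryos with it. In 129 it was 100, 68.1 and 100% without vitamin C and 100% in all 3 libraries with vitamin C. Thus 5 of 6 libraries of 129 covered Hoxd13 in full, and 1 of 6 libraries of B6 did.

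Group 12 has 2 members in the mouse. Hoxd12, a further limb gene (chr2:74675013-74677705), was covered to 54.2, 95.8 and 100% in the B6 embryos without vitamin C and to 78.2, 98.2 and 100% in the B6 embryos with it. The 129 embryos without vitamin C had 100, 78.5 and 100%, and those with vitamin C had 100% in all 3 libraries. It was at least 50% covered in all 12 libraries, as was Hoxb13. Hoxc12 (chr15:102936826-102938609) was covered to 40.9, 49.9 and 100% in the B6 embryos without vitamin C, and to 100, 94.6 and 100% in the B6 embryos with it. In 129 it had 100, 0 and 100% without vitamin C and 100% in all 3 libraries with vitamin C. Within B6 the libraries with vitamin C were all above 90% and those without it were spread widely, with 1 library without vitamin C at 100%, so the groups overlapped.

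The group 11 genes act together in the kidney, and Hoxa11 and Hoxd11 act together in the forelimb. Hoxa11 (chr6:52242105-52245810) was covered to 17.0, 62.6 and 100% in the B6 embryos without vitamin C, and to 100, 68.3 and 100% in the B6 embryos with it. In 129 it had 100, 28.4 and 100% without vitamin C and 100% in all 3 libraries with vitamin C. The low values of Hoxa11 stood in 4 libraries, 3 of them also the lowest for Hoxc11. Coverage of Hoxc11 (chr15:102954526-102956701) was 29.8, 9.27 and 100% in the B6 embryos without vitamin C and 97.7, 64.5 and 100% in the B6 embryos with it. In 129 it was 100, 0 and 100% without vitamin C and 100% in all 3 libraries with vitamin C. Hoxc11 had the widest spread of the 9 genes, 75.1% ± 39.3 (SD, n = 12).

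Hoxd11 (chr2:74679558-74687016) was covered to 57.4, 50.2 and 75.5% in the B6 embryos without vitamin C and to 69.7, 63.3 and 100% in the B6 embryos with it. In 129 it had 100, 46.6 and 100% without vitamin C and 100, 100 and 78.2% with vitamin C. It was covered in full in 5 libraries, fewer than any other posterior gene except Hoxa13. Its annotated span overlaps that of Hoxd10, so the far end of the window is shared between them.

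**Figure D2:**
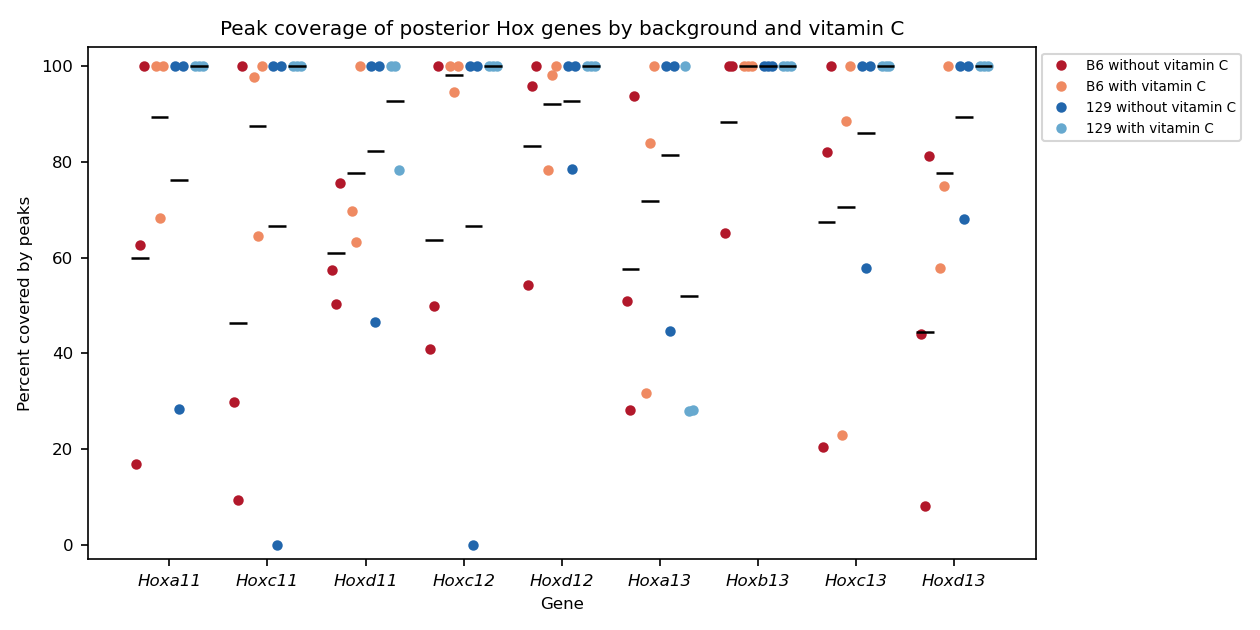
Percent of each posterior Hox gene covered by peaks, 1 point per library and 3 libraries per group, with black lines at the group means. Within each background the libraries with and without vitamin C overlap for every gene, and Hoxb13 lies at 100% in 11 libraries.

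The peaks on the posterior genes were parts of domains that ran through the clusters. A single peak spanned Hoxc11, Hoxc12 and Hoxc13 in 6 libraries, of which 0 were B6 embryos without vitamin C, 1 was a B6 embryo with it, 2 were 129 embryos without it and 3 were 129 embryos with it. It was likewise a single peak over Hoxd11, Hoxd12 and Hoxd13 in 5 libraries (0, 1, 2 and 2 in the same order of groups), and Hoxa11 and Hoxa13 in 4 (0, 1, 2 and 1). In the other libraries the domains were called as several peaks, up to 45 over the Hoxc region in replicate 2 of the B6 embryos with vitamin C. Joined over all libraries, the regions holding these genes measured 133.3 kb at Hoxa (chr6:52145893-52279224), 49.9 kb at Hoxb13 (chr11:96160836-96210708), 173 kb at Hoxc (chr15:102901040-103074009) and 125 kb at Hoxd (chr2:74642864-74767960). The widest single peak on a posterior gene, 172 kb over the Hoxc cluster, was called in replicate 1 of the 129 embryos with vitamin C.

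**Figure D3:**
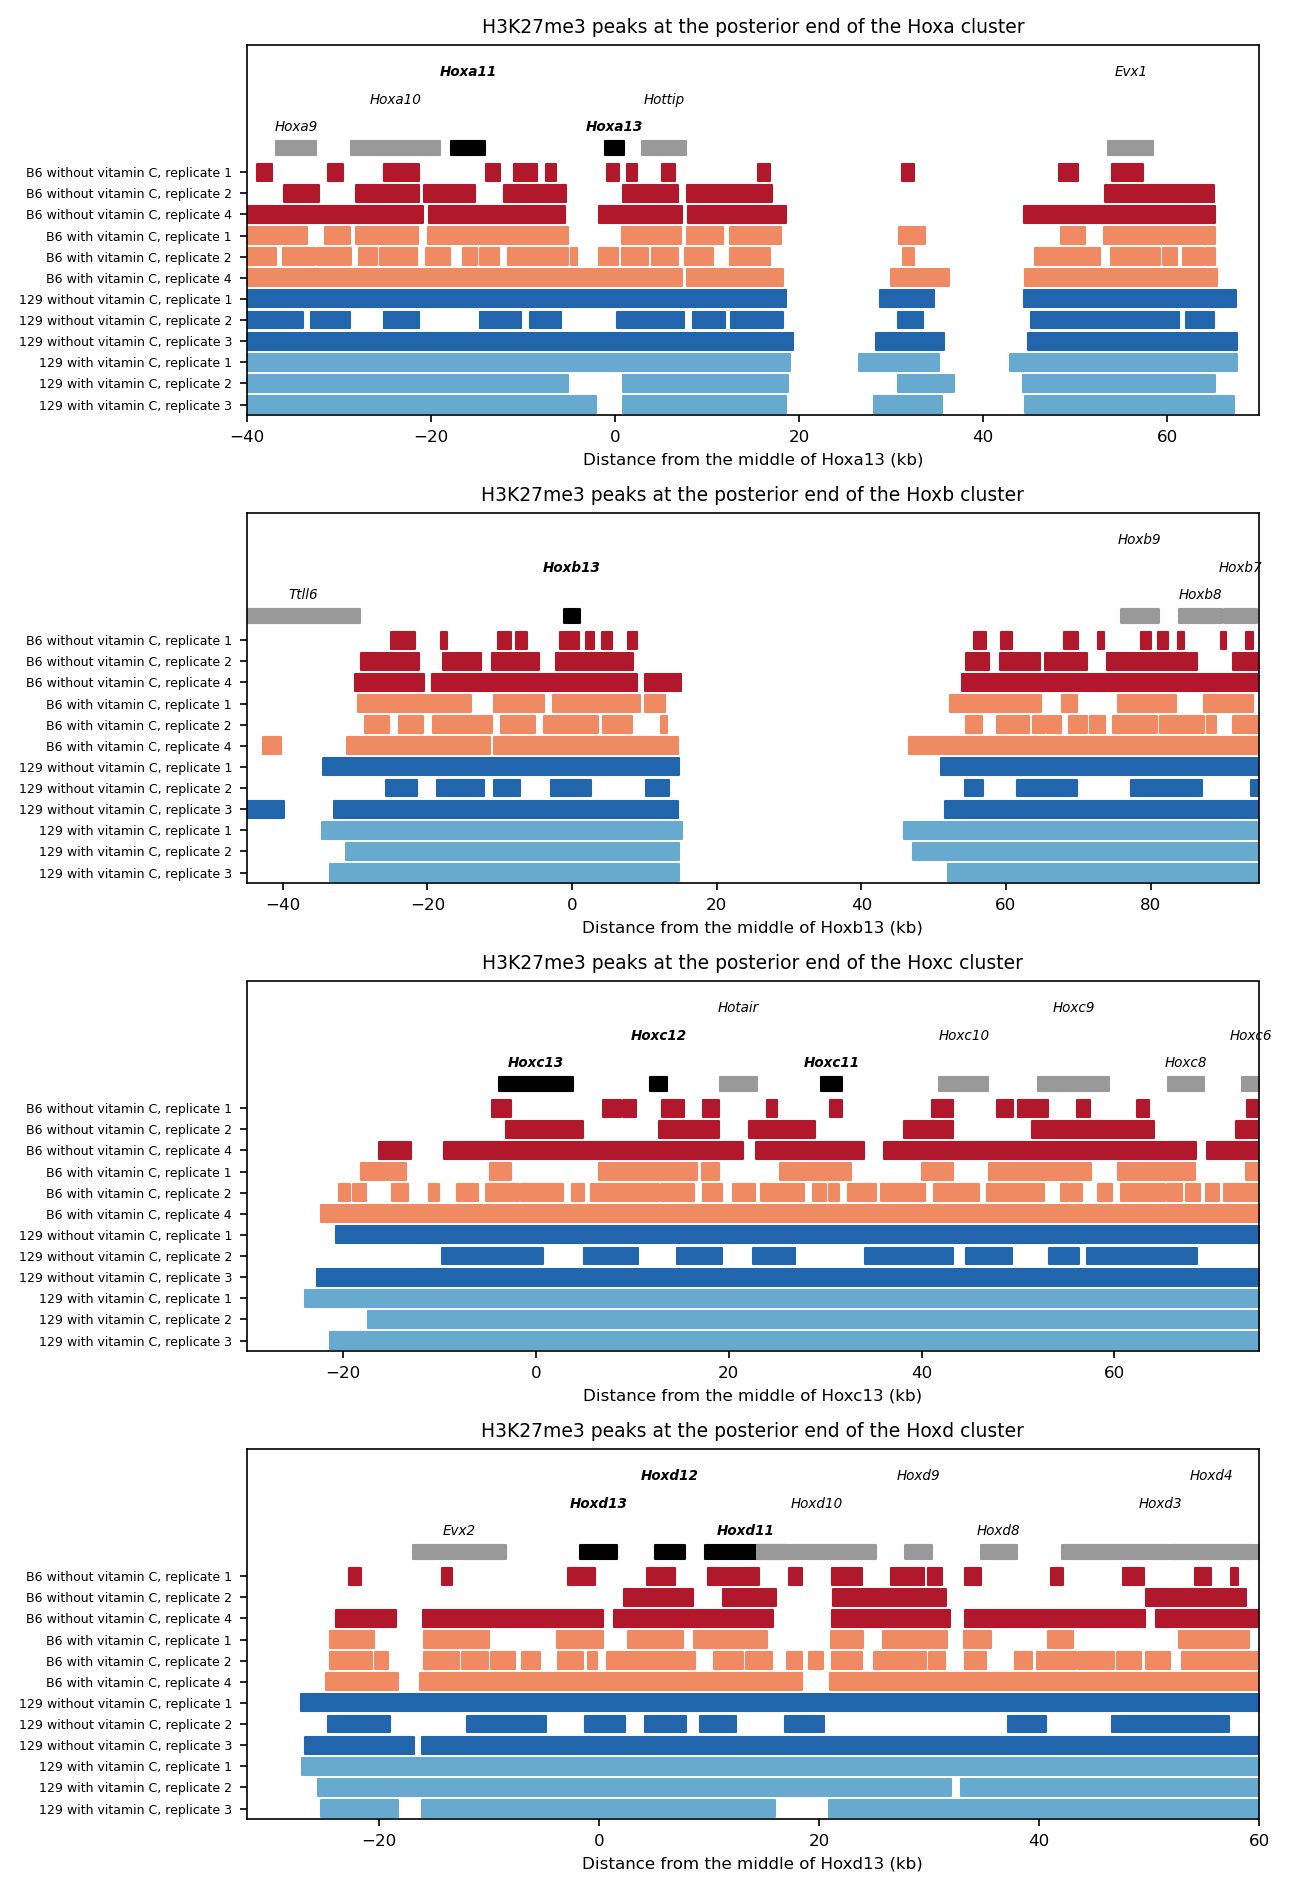
H3K27me3 peaks (coloured bars) in the 12 libraries, grouped by colour, over the posterior ends of the Hoxa, Hoxb, Hoxc and Hoxd clusters, with distance in kb from the middle of the group 13 gene; black boxes are posterior Hox genes and grey boxes other genes, with Hoxd10 drawn over the far end of Hoxd11. No library has a peak in the stretch between the Hoxb13 and Hoxb9 domains, and 8 libraries have a gap over or beside Hoxa13.

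The Hoxb13 domain was never joined to the rest of its cluster. The distance between its end and the start of the Hoxb9 domain was 46.7, 46.1 and 38.8 kb in the B6 embryos without vitamin C and 39.4, 41.3 and 32.0 kb in the B6 embryos with it. In 129 it was 36.2, 41.0 and 36.9 kb without vitamin C and 30.6, 32.4 and 37.2 kb with vitamin C. No peak lay in between in any of the 12 libraries, so the stretch chr11:96210709-96241323 (30.6 kb) was free of peaks throughout. On the far side the Hoxb13 domain reached 23.9 to 33.5 kb beyond the gene. In 8 libraries it entered the end of Ttll6, a tubulin glutamylase gene, and in 4 it stopped short of that gene.

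At the Hoxa end the outermost peak of the joined region ended at nearly the same place in all 12 libraries. At each cluster the edge is the outer end of the outermost peak in the region joined over all libraries. Gaps inside that region were bridged, and separate peaks beyond it were left out. The Hoxa edge lay 15.9, 16.1 and 17.6 kb beyond Hoxa13 in the B6 embryos without vitamin C and 17.0, 15.9 and 17.2 kb in the B6 embryos with it. In 129 it lay 17.6, 17.2 and 18.3 kb beyond the gene without vitamin C and 18.0, 17.8 and 17.6 kb with vitamin C. All 12 edges, taken by that rule, fell within 2.47 kb of each other. In replicate 1 of the B6 embryos without vitamin C, the outermost peak lay 15.6 to 16.9 kb from the middle of Hoxa13. The next peak inward in that library ended at 6.59 kb. In replicate 1 of the 129 embryos without vitamin C, a separate peak at 28.8 to 34.7 kb was left out. Hottip, a long noncoding RNA gene beside Hoxa13, had peaks in all 12 libraries and was covered in full in 5, and Evx1, the homeobox gene past the end of the cluster, lay in a separate marked region in all 12.

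The outer edges at the other clusters were less fixed. The Hoxc edge lay at 0.748, -0.734 and 12.5 kb from Hoxc13 in the B6 embryos without vitamin C, where the negative value lies inside the gene, and at 14.3, 16.5 and 18.4 kb in the B6 embryos with it. In 129 it lay at 16.9, 5.88 and 18.8 kb without vitamin C and at 20.1, 13.5 and 17.5 kb with vitamin C. The Hoxc edge thus ran from inside the gene to well beyond it, with the 2 nearest edges in B6 embryos without vitamin C. At Hoxd it lay at 21.0, -3.94 and 22.2 kb from Hoxd13 in the B6 embryos without vitamin C, where the negative value means that the domain stopped short of the gene, and at 22.8, 22.7 and 23.1 kb in the B6 embryos with it. In 129 the Hoxd edge lay at 25.4, 22.9 and 25 kb without vitamin C and at 25.3, 23.8 and 23.6 kb with vitamin C. Apart from replicate 2 of the B6 embryos without vitamin C, the Hoxd edges fell between 21.0 and 25.4 kb, past Evx2, the homeobox gene that follows Hoxd13. These distances were not tested between groups.

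**Figure D4:**
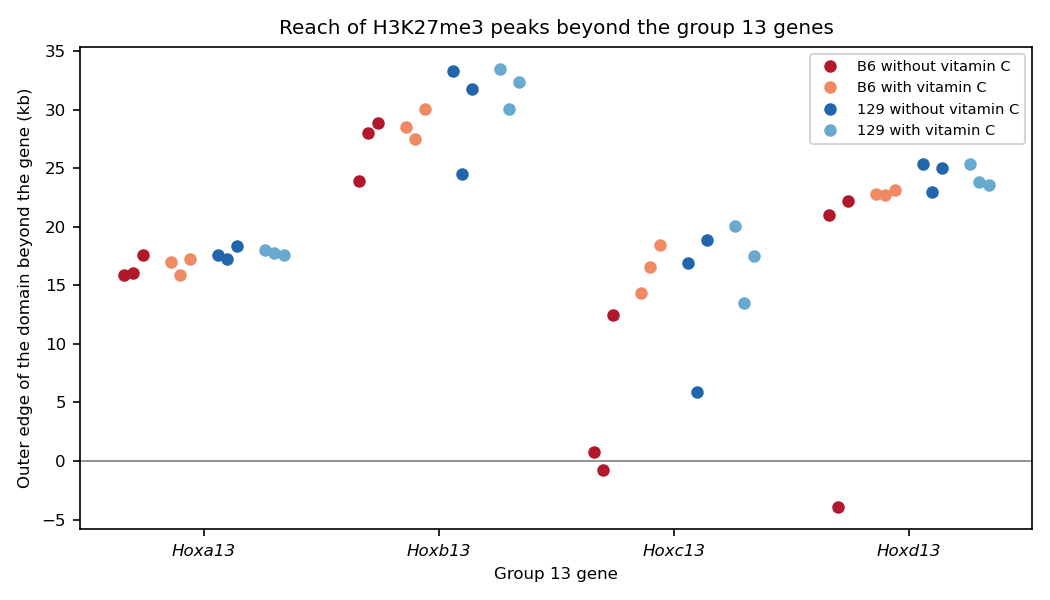
Distance in kb from each group 13 gene to the outer end of the outermost peak in its joined region. Points are single libraries, coloured by group, and values below 0 lie short of the gene's outer end. The 12 Hoxa13 edges lie between 15.9 and 18.3 kb, while the Hoxc13 edges run from -0.734 to 20.1 kb.

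Some stretches near the posterior genes lay within peaks in all 12 libraries. The longest were on Hoxb13 (chr11:96193793-96196375, 2583 bp) and on Hoxd12 with its promoter (chr2:74674265-74676806, 2542 bp). Both were whole peaks of replicate 1 of the B6 embryos without vitamin C, a list with a median peak width of 1322 bp. Further ones lay on Hoxd11 around its second start site (chr2:74681221-74682402), just upstream of Hoxa13 (chr6:52261194-52262236), on Hottip (chr6:52264991-52266458), on Hoxc13 (chr15:102921865-102922360, 496 bp) and beside Hotair, the noncoding RNA gene between Hoxc12 and Hoxc11 (chr15:102942352-102943925). Those upstream of Hoxa13, on Hottip and beside Hotair were also whole peaks of that B6 library. The ends and lengths of these stretches thus rest largely on 1 list of narrow peaks. No stretch on Hoxc11, Hoxc12, Hoxa11, Hoxa13 or Hoxd13 of at least 300 bp was shared by all 12. The peak's maximum fell inside the window of Hoxc13 in 9 libraries, of Hoxb13 in 8, of Hoxd11 in 7 and of Hoxd12 in 5, and for the 5 other genes in 3 or 4.

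A break in the domain was frequent at Hoxa13. A gap of 2.90 to 6.20 kb touched the gene or lay just beside its 3′ end in 8 libraries, 3 of them B6 embryos without vitamin C, 2 B6 embryos with it, 1 a 129 embryo without it and 2 129 embryos with it. In 4 of these the gap ended within 300 bp of the Hoxa13 start site, so the promoter printed above lay inside a peak, and only 5.47 to 13.9% of the gene body did. Coverage of the gene body was under 50% in 5 libraries. The stretch chr6:52254751-52258989, at the 3′ end of the gene, lay within peaks in 4 to 6 libraries only. The shared stretch just upstream of Hoxa13 lay on the other side of the gene. A break also lay between the later part of Hoxd11 and the end of Hoxd10 in 8 libraries, with a widest gap of 1.36 to 5.79 kb. In 7 of them the widest gap touched Hoxd11, and in replicate 4 of the B6 embryos with vitamin C it lay on Hoxd10 alone, past the end of Hoxd11. There the stretches chr2:74685958-74687055 and chr2:74688419-74690971 lay within peaks in 4 to 6 libraries.

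The libraries differed as a whole, and the posterior genes moved with them. The lists held 748 to 4726 peaks. Peaks covered 3.58, 4.15 and 15.0 Mb of the genome in the B6 embryos without vitamin C, 11.4, 8.69 and 27 Mb in the B6 embryos with it, 26.2, 6.97 and 25.9 Mb in the 129 embryos without vitamin C and 31.7, 17.8 and 20.5 Mb in the 129 embryos with it. A pair of libraries, replicate 1 of the B6 embryos without vitamin C and replicate 2 of those with it, had median peak widths of 1322 and 1410 bp, against 3930 bp or more in the other 10. The read depth behind each list is unknown. The covered length moved with the coverage of the posterior genes, and its part in the results was not tested. Mean coverage of the 9 posterior genes was 42.2, 54.0 and 94.5% in the B6 embryos without vitamin C and 73.1, 81.8 and 100% in the B6 embryos with it. In 129 it was 100, 47.1 and 100% without vitamin C and 100, 92.0 and 89.6% with vitamin C. The 3 lowest means stood in the 3 libraries with the least covered genome.

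Coverage of the posterior genes was lower without vitamin C for 8 of 9 genes over both backgrounds, but no difference passed the test. The differences (without minus with vitamin C, the mean of the within-background differences) ran from -37.2 points at Hoxc11 to +7.63 points at Hoxa13, with a median of -13.6. Next came Hoxc12 at -34.0 and Hoxa11 at -26.7 points, each with an unadjusted p of 0.2 by exact permutation, as for Hoxc11 (two-sided, 400 relabellings, smallest possible p 0.005). Hoxd13 was at -21.9 points (p = 0.15), Hoxd11 at -13.6 (p = 0.27), Hoxc13 at -8.55 (p = 0.6), Hoxd12 at -7.99 (p = 0.4) and Hoxb13 at -5.82 (p = 1), all by the same exact permutation test. The sizes of the differences, and the order of the genes between the extremes, depended on replicate 2 of the 129 embryos without vitamin C. Hoxc11 and Hoxc12 stayed lowest and Hoxa13 stayed highest when it was left out. Without that library the differences were -20.5 points at Hoxc11, -17.3 at Hoxc12, -14.8 at Hoxa11, -16.6 at Hoxd13 and +16.9 at Hoxa13. The adjusted p of the exact permutation test was 1 for all 9 genes. Of the 4427 genes tested, 0 passed an adjusted p of 0.05 (0.0%) and 71 an unadjusted p of 0.05 (1.6%), and 0 of the 9 posterior genes passed either. A lower value without vitamin C was general: 84.7% of all tested genes had one, with a median of -1.83 points, and the 1298 genes marked in at least 10 libraries had a median of -7.30 points. The 30 other Hox genes were all lower, with a median of -16.3 points.

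Within B6, 87.4% of all 4427 tested genes and 28 of the 30 other Hox genes (median -19.8 points) were lower without vitamin C. All 9 posterior genes were lower too, by -41.1 points at Hoxc11 to -3.05 points at Hoxc13, with a median of -16.6. The largest differences were those of Hoxc11 (46.4% ± 47.6 without vitamin C, 87.4% ± 19.8 with it), Hoxc12 (63.6% ± 31.8 without it, 98.2% ± 3.10 with it) and Hoxd13 (44.4% ± 36.5 without it, 77.6% ± 21.2 with it, SD, n = 3 each). The SDs of the groups without vitamin C were close in size to these differences, and the smallest p among the 9 genes was 0.3 by exact permutation with 20 relabellings, of which 0.1 is the smallest possible. Without replicate 1 of the B6 embryos without vitamin C, the B6 difference was +20.5 points at Hoxc13, +5.79 at Hoxd12 and 0 at Hoxb13, and Hoxc13 was at -26.8, +5.96 and +11.7 points without replicate 1, 2 or 4 of the B6 embryos with vitamin C. The B6 median ranged from -32.4 points without replicate 4 of the B6 embryos without vitamin C to -10.9 points without replicate 1 of them. Within 129 the median was -10.6 points, Hoxb13 had the same value in both groups, and Hoxa13 alone was higher without vitamin C (81.5% ± 32.0 without it, 52.0% ± 41.6 with it, SD, n = 3 each, exact permutation p = 0.4). In neither background did any of the 4427 genes pass an adjusted or an unadjusted p of 0.05 by exact permutation (0.0%), which 3 libraries against 3 cannot reach. Without replicate 2 of the 129 embryos without vitamin C, the only 129 library of that group below 100% for any posterior gene, the median within 129 was 0 points and Hoxd11 was also higher without vitamin C, by 7.26 points. The 129 difference of Hoxa13 ranged from 17.5 to 53.5 points with a library left out, highest without replicate 1 of the 129 embryos with vitamin C, and was 5.54 points with peaks less than 5 kb apart joined.

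The difference between the backgrounds in the effect of vitamin C was tested directly. For Hoxa13 the difference without minus with vitamin C was +29.5 points in 129 and -14.3 points in B6, a contrast of +43.8 points with an unadjusted p of 0.27 and an adjusted p of 1 by exact permutation. The other posterior genes ran from -11.0 points at Hoxc13 to +22.6 points at Hoxd13, with unadjusted p of 0.54 or more by exact permutation. The median over the 9 genes was 6.08 points, and over all tested genes 1.27 points. Of the 4427 genes, 0 passed the adjusted threshold (0.0%) and 4 an unadjusted p of 0.05 (0.0904%), and 0 of the posterior genes passed either. The vitamin C contrast of the posterior genes was therefore not shown to differ between B6 and 129.

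Posterior Hox coverage was lower in B6 than in 129 for all 9 genes, as it was for 74.5% of all tested genes and 28 of the 30 other Hox genes. Of the 9 genes, only Hoxd13 reached an unadjusted p of 0.05 by exact permutation. Hoxd13 coverage was 61.0% ± 32.3 in B6 and 94.7% ± 13 in 129 (SD, n = 6 each), a difference of -33.7 points (B6 minus 129, exact permutation p = 0.04, adjusted p = 0.33). Hoxc13 averaged 69.0% ± 37.3 in B6 and 93.0% ± 17.2 in 129, which is -24.0 points (exact permutation p = 0.26), and Hoxd11 69.4% ± 17.5 in B6 and 87.5% ± 21.8 in 129, which is -18.1 points (exact permutation p = 0.145). The 6 other genes lay between -16.4 points at Hoxc11 and -2.0 points at Hoxa13, with unadjusted p of 0.26 or more by exact permutation. Of the 4427 genes, 0 passed the adjusted threshold (0.0%) and 584 an unadjusted p of 0.05 (13.2%), and among the genes marked in at least 10 libraries the share at an unadjusted p of 0.05 was 32.4%. A count of 1 in 9 posterior genes is thus no larger a share than the background. The median difference was -13.4 points for the posterior genes, -13.0 points for the genes marked in at least 10 libraries, -20.3 points for the 30 other Hox genes and -2.70 points for all tested genes. The library numbers of B6 all come after those of 129, so background and library number cannot be told apart. The Hoxd13 difference ranged from -42.8 to -24.6 points when a library was left out, and was -15.3 points when peaks less than 5 kb apart were joined.

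Coverage of the posterior genes lay within the range of the other Hox groups, and their peaks were narrower than those of the middle groups. The median of the libraries' mean coverage was 90.8% for groups 11 to 13, 93.9% for groups 9 and 10, 98.8% for groups 6 to 8, 97.5% for groups 4 and 5 and 88.9% for groups 1 to 3. Groups 11 to 13 were below groups 9 and 10 in 4 libraries, above in 5 and equal in 3. The median widest peak on a gene was 31.0 kb for groups 11 to 13, against 57.5 kb for groups 9 and 10, 67.4 kb for groups 6 to 8, 64.8 kb for groups 4 and 5 and 15.7 kb for groups 1 to 3. Within its list, the strongest peak on a posterior gene stood at a median percentile of 98.7 by total signal and of 88.8 by maximum signal, so its place by total signal was higher than its place by height. Genes of 1 cluster often share a peak, so these values are a description and were not tested.

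**Figure D5:**
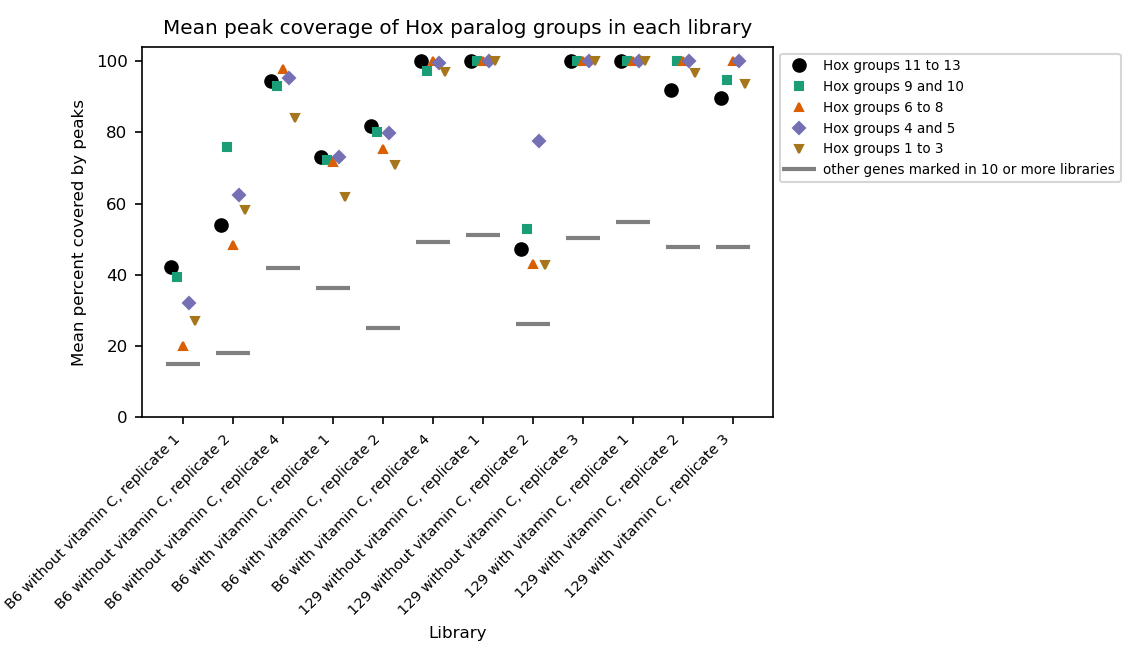
Mean percent covered of the Hox paralog groups (symbols) and of the other genes marked in at least 10 libraries (grey lines) in each of the 12 libraries. The posterior groups (black) lie close to the other Hox groups in most libraries and above the grey line in all 12.

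The neighbours of the posterior genes were marked as well. Hoxa10, Hoxb9, Hoxc10 and Hoxd10, the nearest Hox gene in each cluster, had peaks in all 12 libraries. Of the 12 genes found around the cluster ends, 7 were marked in at least 10 libraries, among them Evx1 (12), Evx2 (11), Hotair (12) and Hoxa11os, the antisense RNA gene of Hoxa11 (12), while Hibadh, Mtx2, Lnpk and Calcoco1 had none. Of the outlying genes in that list, Smug1, a DNA repair gene, was marked in 12 libraries and Skap2, an adaptor protein gene, in 8. The share of all protein-coding genes marked in at least 10 libraries, 5.93%, is the background for these counts and those that follow. The count around the cluster ends also holds the noncoding RNA genes Hottip, Hotair and Hoxa11os, which that share leaves out. Of 12 genes that drive posterior growth and Hox activation, 6 were marked in at least 10 libraries: Cdx2 and T in 12, Cdx1 and Wnt3a in 11, and Cdx4 and Fgf8 in 10. Tgfbr1, Acvr2b, Tbx6, Lin28a and Lin28b had no peak in any library, and Gdf11, a signal that starts posterior Hox expression, had one in 1. Of 15 limb and urogenital partners, 7 were marked in at least 10 libraries, with Tbx4, Tbx5, Pitx1, Shh and Hand2 in 12, and the cofactor genes Pbx2, Pbx3 and Meis2 in 0. Only protein-coding genes with a peak in some library were tested, so those 3 noncoding genes were not. Of the tested genes in these lists, 0 passed the adjusted threshold for vitamin C or for background by exact permutation. At an unadjusted p of 0.05 there were 0 for vitamin C. For background there were 2 of 7 tested posterior growth genes and 3 of 9 tested limb and urogenital genes, all lower in B6. The background shares for these counts are 13.2% of all tested genes and 32.4% of the genes marked in at least 10 libraries.

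Markers were read only as genes with or without peaks. Of the headfold markers, Hesx1 had a peak in 0 libraries, Sox2 in 2, Otx2 in 3 and Zic2 in 5, while Six3 had one in 11 and Sox1 in 10. Of the markers of posterior tissue, T and Cdx2 had peaks in 12, Wnt3a in 11, Cdx4 in 10 and Tbx6 in 0. Outside the Hox clusters, the genes whose coverage was most like the mean of the posterior genes over the 12 libraries included Utf1, a chromatin factor of pluripotent cells, with a mean absolute difference of 4.53 points, Barhl2 (5.09 points) and Vax1 (5.58 points), which are homeobox genes of the nervous system, and Osr2, a zinc finger gene of palate and limb (5.81 points).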

How the data were processed

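H3K27me3 CUT&Tag peak lists of 12 single headfolds were used. Per the submitters' processing notes, cutadapt, Bowtie2, Picard and SEACR were used with build mm10, but the sources used here do not give their versions, settings or any use of IgG in calling. A deposited list has the stringent peaks of a library, with total and maximum signal as the authors' whole numbers without visible scaling; these served only to rank and filter peaks within a list. Read depth is unknown, so no interval from depth is given. Coordinates are 1-based.

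Gene positions and promoters came from RefSeq for GRCm38.p6. The percent of each gene span plus 1 kb at each end covered by peaks was compared by exact permutation within strata for the 4427 protein-coding genes with coverage above 0 in any library, with Benjamini-Hochberg adjustment over all of them, in Python 3.11.15 with NumPy 2.4.6, pandas 2.3.3 and Matplotlib 3.10.9. The test was tried on simulated normal values that were not bounded as percentages are. That trial does not show how the test behaves on these coverages. Marked genes had 1 bp or more of a peak within their window.

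All 9 posterior genes were named, with fixed lists of neighbours, cluster end genes (Prac1 and Prac2 were not matched), posterior growth genes, limb and urogenital genes, markers, and the 5 most alike genes at least 250 kb from any Hox gene, of which some results are not reported here. The members and lists were chosen with earlier results of these data known. Replicates are separate embryos, and p-values measure the spread between them. The 3 B6 embryos with vitamin C carry 1 timed pregnancy code, and each other embryo used carries its own. The tests as reported, for background as well as vitamin C, took no account of this. Alternatives changed the window, the peak threshold, width, joining and list length, the libraries, the pregnancies and the scale.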

Additional observations from a re-analysis of the deposited data

How the results depend on the processing

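The results were also worked out under 21 other settings. Among them, averaging the embryos of each timed pregnancy left 1 value for the B6 embryos with vitamin C, so no test is given there. In the rest, 0 tests of a posterior gene passed the adjusted threshold, and genes outside the 9 were not counted. Posterior genes were counted where at most 2 of the libraries in use lacked the mark, which is at least 10 of the full 12. Their count was 9 in most settings and 8 with only the stronger peaks of each list (maximum signal no lower than the list's median). It was 6 where at least 50% had to be covered. The median vitamin C difference in both backgrounds stayed below 0, between -28.0 and -3.44 points, and from -20.4 to -5.82 points with a library left out. With only the stronger peaks the median in 129 was -33.3 points. The median contrast between backgrounds ranged from -2.83 to 29.6 points with a library left out, 29.6 without replicate 2 of the 129 embryos without vitamin C. The median difference between backgrounds ranged from -25.4 to -2.70 points with a library left out, -2.70 without replicate 1 of the B6 embryos without vitamin C. Its highest value over all settings was 0 points.

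Direction turned for some genes, and the cause was not tested. The vitamin C difference of Hoxa13 was -1.90 points with 2.5 kb at each end, -2.71 with only the stronger peaks, -2.53 with peaks less than 5 kb apart joined, and -2.39 to 19.6 with a library left out. Its difference between backgrounds was 3.25 points on the gene span alone, 16.7 where libraries at least 50% covered were counted, as for Hoxd11, and -11.2 to 9.99 with a library left out. With only the stronger peaks the background difference of Hoxb13 was 10.0 points. Without the libraries of median peak width under 2 kb, the vitamin C difference was 0.815 points for Hoxd12 and 7.72 for Hoxc13, and the background difference 2.58 points for Hoxa11 and 4.15 for Hoxc12. With a library left out, the vitamin C difference of Hoxc13 ranged from -20.4 to 3.21 points and the background difference of Hoxc12 from -19.1 to 5.92. No paired analysis was possible because the replicate numbers were given in accession order and pair no samples.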

Other observations

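With every list held to the 748 peaks of largest total signal, the length of the shortest list, mean coverage of the 9 posterior genes was 33.1, 54.0 and 94.5% in the B6 embryos without vitamin C and 64.3, 58.3 and 100% in the B6 embryos with it. In 129 it was 100, 31.2 and 100% without vitamin C and 100, 92.0 and 89.6% with vitamin C. Replicate 2 of the 129 embryos without vitamin C then had peaks on 4 of the 9 genes (Hoxd12, Hoxa13, Hoxb13 and Hoxc13), against 7 in its full list.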
